A study of Homo sapiens with 6 samples.

Results

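Flavin-containing monooxygenases (FMOs) are enzymes of the endoplasmic reticulum that hold FAD, take electrons from NADPH and transfer 1 oxygen atom of O2 to soft nucleophiles, most often the nitrogen or sulfur of a drug, a dietary amine or a thioether. FMO1 is the main form of kidney and fetal liver, and FMO2 is known chiefly from lung. FMO5 stands apart from the others as an enzyme that inserts oxygen next to a carbonyl group, and FMO4 is little characterized. The RNAs of FMO1, FMO2, FMO4 and FMO5 were examined in OVCAR-3 cells, an established human ovarian carcinoma line, with and without knockdown of COX-1, the prostaglandin synthase encoded by PTGS1. These 4 of the 34811 genes of the count table were selected on the basis of the measured difference between the same 6 libraries, so their levels and fold changes are given as a description, without a test.

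OV3/SCR cells carried a scrambled shRNA and OV3/COX1KD cells an shRNA directed at COX-1, both in the pRS HuSH-29 plasmid and both kept as stable lines after puromycin selection. Each condition was represented by 1 clone, so that an effect of the knockdown and a difference between clones cannot be told apart. RNA-seq was performed on 3 cell populations per condition, harvested separately, and the number of reads counted on each gene was available for every library. RNA was taken from whole monolayers, in which fewer cells with a transcript and less of the transcript per cell cannot be told apart.

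Library totals lay between 25291505 and 27391538 counts, and the 3 counts taken as the limit of detection correspond to 0.113 to 0.120 CPM, the count scaled to library size by the TMM factors of edgeR, a limit that covers counting error only. PTGS1 had 713, 658 and 641 counts in OV3/SCR replicates 1, 2 and 3 and 456, 486 and 501 in those of OV3/COX1KD, a fall by 0.45 on the log2 scale (SE 0.057, edgeR FDR = 1.3e-06). A gene was called when its edgeR FDR, adjusted over the 17309 genes that passed the filter on low counts, was under 0.01. Of these genes 47.9% were called in either direction, 25.8% higher and 22.1% lower in OV3/COX1KD cells. These were 4473 higher and 3820 lower genes, which became 3466 and 4978 when libraries were scaled by total counts alone. The 12 ovarian and epithelial markers each had at least 225 counts in every library. Of markers of other cells, PTPRC of leukocytes had 2 to 8 counts per library, CDH5 of endothelium 0 to 3, COL3A1 of fibroblasts 0 to 4, and ALB of hepatocytes 0 to 2. Others of these lists were clearly counted, with 143 to 270 counts of COL1A1 (fibroblast), 25 to 52 of VWF and 38 to 45 of KDR (endothelium), and 479 to 551 of SERPINA1 and 108 to 292 of APOA1 (hepatocyte), the last of which rose by 1.29 on the log2 scale. The summed level of the 12 ovarian and epithelial markers, of which 9 rose and 3 fell, was 5877 to 5939 CPM in OV3/SCR and 7599 to 7801 CPM in OV3/COX1KD cells. That of the 6 fibroblast markers was 10.9 to 11.6 and 6.72 to 7.43 CPM, that of 6 leukocyte markers 1.46 to 2.15 and 1.01 to 1.80, that of 3 endothelial markers 2.46 to 3.23 and 2.87 to 3.57, and that of 4 hepatocyte markers 23.5 to 25.6 and 29.8 to 32.2 CPM. Their part in the FMO levels was not tested.

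FMO proteins are alike around the glycine-rich motif that holds FAD, close to the start of the protein. To show how alike and how distinct the transcripts are, 42 bases of coding sequence around this motif are given from GRCh37 for FMO2, for FMO1 of the same cluster and for FMO5, with capitals for bases that differ from FMO2 at the same place.
FMO2: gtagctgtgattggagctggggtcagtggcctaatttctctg
FMO1: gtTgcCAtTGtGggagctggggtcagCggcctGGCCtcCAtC
FMO5: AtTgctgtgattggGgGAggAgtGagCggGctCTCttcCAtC
These stretches lie at chr1:171154865-171154906 (FMO2) and chr1:171227239-171227280 (FMO1) on the plus strand and at chr1:146696565-146696606 (FMO5) on the minus strand. Against FMO2, the FMO1 stretch differed at 14 bases and that of FMO5 at 15. The motif began at codon 9 of FMO1 and FMO2 and at codon 10 of FMO5, in reading frames of 532, 535 and 533 codons. Over the whole annotated transcripts, no word of 50 bases was shared between any pair of the FMO genes described here, so a stretch of 50 bases that matched 1 of these genes perfectly matched no other.

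FMO2 (ENSG00000094963, chromosome 1 of GRCh37 from 171154388 to 171181825, plus strand) was the member that differed most between the conditions. It had 10, 9 and 17 counts in OV3/SCR replicates 1, 2 and 3 and 116, 142 and 127 counts in OV3/COX1KD replicates 1, 2 and 3. The lowest OV3/COX1KD library was far above the highest OV3/SCR library, which was replicate 3. Its level was 0.459 ± 0.172 CPM (SD, n = 3) in OV3/SCR and 5.01 ± 0.571 CPM (SD, n = 3) in OV3/COX1KD cells, 10.9 times as much. The fitted log2 fold change was 3.44 (SE 0.21), the 6th largest rise among the 17309 genes tested, against a median of -0.0087 over all of them. Without OV3/SCR replicate 3, the highest control library, the log2 fold change was 3.78, and over all settings tried it lay between 3.27 and 3.78.

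FMO4 (ENSG00000076258, chromosome 1 from 171283322 to 171311223, plus strand), which lies at the far end of the same gene cluster, was counted 28, 23 and 16 times in the control cells and 37, 33 and 39 times after knockdown. All 3 OV3/COX1KD libraries were above all 3 OV3/SCR libraries, with the OV3/SCR values spread more widely. The level was 0.851 ± 0.218 CPM (SD, n = 3) in OV3/SCR and 1.42 ± 0.0867 CPM (SD, n = 3) in OV3/COX1KD cells, 1.67 times as much. The log2 fold change was 0.73 (SE 0.24), rank 1106 among the rises of all tested genes.

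FMO5 (ENSG00000131781, chromosome 1 from 146646930 to 146714700, minus strand) is located on its own, away from the cluster. Its counts were 9, 24 and 10 in OV3/SCR replicates 1, 2 and 3, against 7, 17 and 15 in OV3/COX1KD cells. The groups overlapped, and replicate 2 was the highest library of each condition. The level was 0.549 ± 0.324 CPM (SD, n = 3) in OV3/SCR and 0.507 ± 0.206 CPM (SD, n = 3) in OV3/COX1KD cells, with a log2 fold change of -0.11 (SE 0.41). Over the scalings, filters, tools and library sets tried this value lay between -0.36 and 0.48, the highest without OV3/SCR replicate 2. The direction was therefore not resolved with these counts and this spread between replicates.

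FMO1 (ENSG00000010932, chromosome 1 from 171217610 to 171255117, plus strand) was close to the limit of detection. Counts of 5, 3 and 2 were found in OV3/SCR cells and of 2, 7 and 2 in OV3/COX1KD cells, and 2 of the 6 libraries were above 3 counts. The sums were 10 counts in OV3/SCR and 11 in OV3/COX1KD, and the levels were 0.127 ± 0.056 and 0.145 ± 0.117 CPM (SD, n = 3 each). FMO1 was too scarce for the filter, and a fold change was not computed. A difference in FMO1 was not detectable at this depth.

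**Figure D1:**
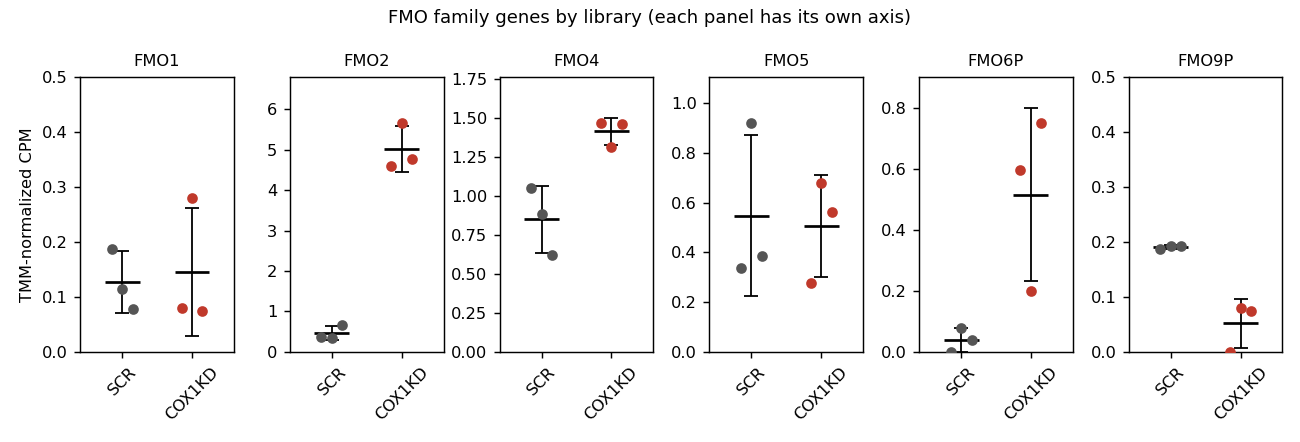
TMM-scaled CPM of 6 FMO family genes, each panel with its own axis from 0; points are single libraries (3 OV3/SCR, 3 OV3/COX1KD), thick lines means and bars SD. FMO2 went from 0.459 to 5.01 CPM and FMO4 from 0.851 to 1.42 CPM with no overlap between conditions, while the libraries of FMO1 and FMO5 overlapped.

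Among the 3 members that passed the filter, 1 was called higher and none lower by edgeR, against 25.8% and 22.1% of all tested genes. FMO2, the 1 called, also passed the fold limit of 2.5 that 1.58% of all tested genes passed upward. Groups that did not overlap, with OV3/COX1KD higher, were seen for 2 of these 3 members and for 32.5% of all tested genes. Since the genes were selected on this contrast, these calls are not a test of the members, and nothing is read from these counts.

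FMO6P and FMO9P, FMO pseudogenes of the table, were not used by the selection. FMO6P (ENSG00000117507, chromosome 1 from 171106879 to 171130707, plus strand), a unitary pseudogene just below FMO2, was counted 0, 2 and 1 times in OV3/SCR and 15, 5 and 20 times in OV3/COX1KD cells. Its OV3/COX1KD level was 0.515 ± 0.284 CPM (SD, n = 3), with replicate 2 at 0.200 CPM. With the OV3/SCR libraries set to the limit of 3 counts per library, the mean in OV3/COX1KD cells was at least 4.50-fold higher. The edgeR FDR was 1.3e-07 when all rows were kept (2.4e-09 to 0.00719 over the settings tried). FDRs with all rows kept are not comparable with those after the filter. For CSAD they were 2.9e-17 and 5.6e-05, and for CYP2D6 0.00945 and 0.00604. FMO9P (ENSG00000215834, chromosome 1 from 166581707 to 166600637, plus strand), a pseudogene outside the cluster, had 5 counts in each OV3/SCR library and 0, 2 and 2 counts after knockdown. Its mean OV3/SCR level was 1.63 times the limit of 3 counts per library. FMO9P was not called, with an edgeR FDR of 0.0993 when all rows were kept (0.0740 to 0.351 over the settings tried), so a fall was not resolved.

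Levels of different genes were compared per kilobase of exon (RPKM). In OV3/SCR cells FMO4 was the most abundant of the 4 RNAs per kilobase, at 0.335 ± 0.0856 RPKM (SD, n = 3). On this scale its lowest library was above the highest library of the other members. FMO5 at 0.0918 ± 0.0541 RPKM and FMO2 at 0.0741 ± 0.0278 RPKM overlapped, and FMO1 at 0.0352 ± 0.0155 RPKM was below both in every library. In OV3/COX1KD cells the order was FMO2 at 0.809 ± 0.0920 RPKM and then FMO4 at 0.557 ± 0.0341 RPKM, without overlap between these 2 genes. FMO5 at 0.0847 ± 0.0345 RPKM and FMO1 at 0.0402 ± 0.0324 RPKM followed with overlapping libraries.

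The shares of the members differed between the conditions. Summed over the 4 genes, the level was 0.582, 0.589 and 0.436 RPKM in OV3/SCR and 1.39, 1.62 and 1.46 RPKM in OV3/COX1KD cells. FMO2 held 10.4%, 9.46% and 24.3% of this sum in OV3/SCR and 53.5%, 56.3% and 52.7% in OV3/COX1KD replicates 1, 2 and 3. The share of FMO4 was 71.0%, 59.0% and 55.9% in OV3/SCR and 41.6%, 31.9% and 39.5% in OV3/COX1KD, lower although its own level was higher. In the control FMO4 made up most of this sum in every library, and FMO2 was the largest part in every OV3/COX1KD library. The order in the control rests on exon lengths of 2542 bases for FMO4, 6201 for FMO2 and 5978 for FMO5. By counts alone, FMO4 held 53.8%, 39.0% and 35.6% of the 4 genes in OV3/SCR. FMO5 held more in replicate 2 (40.7%) and FMO2 more in replicate 3 (37.8%). In OV3/COX1KD FMO2 held 69.4% to 71.6% by counts too.

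**Figure D2:**
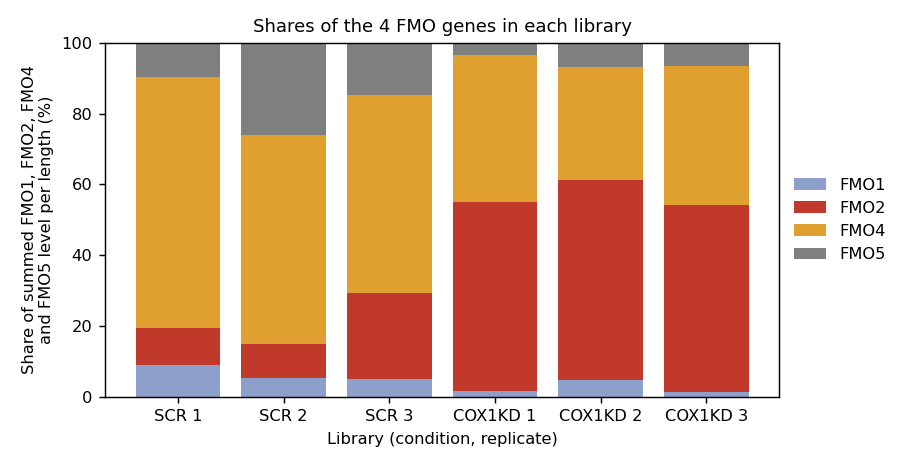
Share (%) of each member in the summed FMO1, FMO2, FMO4 and FMO5 level per exon length, 1 stacked bar per library. FMO4 takes 55.9% to 71.0% in the OV3/SCR bars and FMO2 takes 52.7% to 56.3% in the OV3/COX1KD bars.

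Exons shared with a gene on the other strand could change the count of an FMO gene if the counting was not by strand. Such reads could be added to it or left out as ambiguous. The sources used here do not state the strand setting, and how such reads were handled was not examined. The long antisense transcript RP1-45C12.1, which spans much of the cluster, overlapped no FMO exon and had 1 count in 1 of the 6 libraries. For FMO2, 3.89% of the exon length was shared with an opposite-strand gene, ENSG00000225243, that was not analysed here, and for FMO1 4.50% was shared with HMGB1P11, which had at most 2 counts in a library. FMO5 shared 13.2% of its exon length with the antisense gene ENSG00000271721, which had 19, 24 and 26 counts in OV3/SCR and 31, 21 and 25 in OV3/COX1KD, more than FMO5 in 5 of the 6 libraries, and 2.64% with CHD1L. The effect of these overlaps on the FMO5 counts, in either direction, was not tested. FMO4 overlapped no other annotated gene.

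Position was not used by the selection, so the tested genes around the FMO genes were compared in the same fit. Within 2 Mb of the gene cluster that holds FMO2, FMO1 and FMO4, 6 of 20 tested neighbours rose, 4 fell and 10 were not called, with a median log2 fold change of 0.15 and a range of -1.48 to 0.64. Of all tested genes 25.8% were called higher and 22.1% lower. The next tested gene above FMO4, PRRC2C at 143 kb, had a log2 fold change of 0.13 (SE 0.042, edgeR FDR = 0.0101, 1.1e-09 to 0.239 over the settings tried), and GORAB, the nearest below the cluster, had -0.14 (SE 0.080, FDR = 0.130). VAMP4, a vesicle fusion protein gene 358 kb above, rose by 0.42 (SE 0.091, FDR = 5.9e-04), and KIFAP3, which encodes a kinesin adaptor, rose by 0.64 (SE 0.065, FDR = 5.6e-08) further below. RP4-560B9.1 at 341 kb above and SCYL3 below KIFAP3 had log2 fold changes of 0.55 (FDR = 0.0370) and -0.099 (FDR = 0.305). The members were selected on this difference and their neighbours were not, so the sizes are not compared.

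Around FMO5, 6 of 34 tested neighbours rose, 2 fell and 26 were not called, with a median log2 fold change of 0.099. The shares over all tested genes were 25.8% higher and 22.1% lower. The 6 and 2 called here were reduced to 5 in all when OV3/SCR replicate 1 was left out. CHD1L, which encodes a chromatin remodeler and overlaps FMO5 head to head, rose by 0.18 (SE 0.037, FDR = 2.5e-04), and PDIA3P, a pseudogene at its other end, rose by 0.77 (SE 0.19, FDR = 0.00194). PRKAB2, a subunit of AMP-activated protein kinase 2.80 kb away, had a log2 fold change of 0.11 (SE 0.059, FDR = 0.104). NBPF12 at -0.021 (FDR = 0.904), PFN1P8 at 0.26 (FDR = 0.363), RP11-337C18.8 at 0.44 (FDR = 0.221), ENSG00000271721 at 0.19 (FDR = 0.546) and ACP6 at 0.14 (FDR = 0.101) did not pass either. BCL9, a co-activator of Wnt signaling 299 kb above, rose by 0.36 (SE 0.044, FDR = 9.3e-07).

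**Figure D3:**
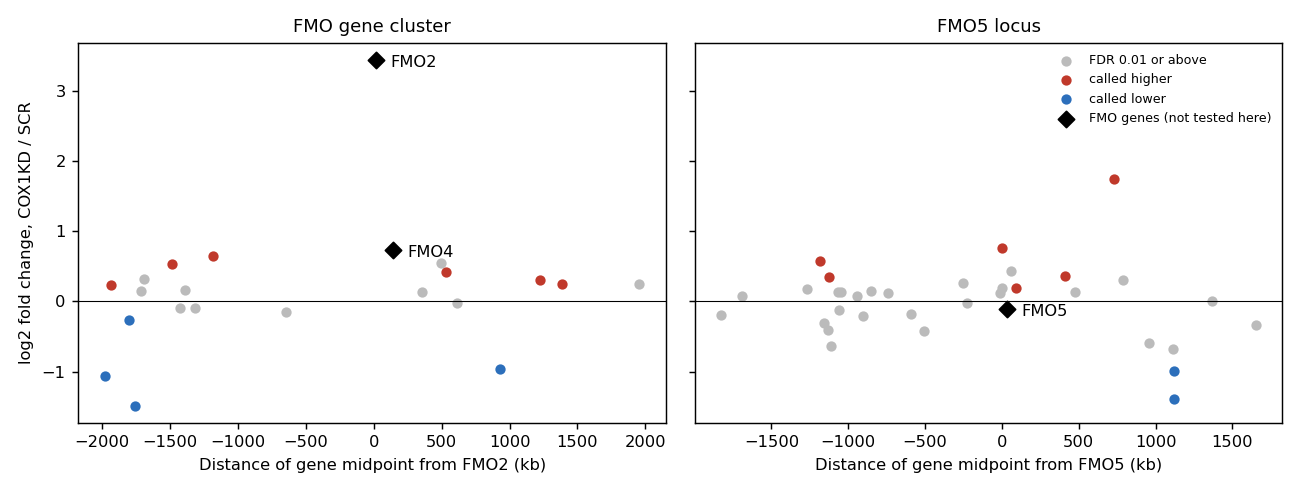
Log2 fold change, OV3/COX1KD over OV3/SCR, of tested genes within 2 Mb of the FMO cluster (left) and of FMO5 (right), against the distance of the gene midpoint from FMO2 or FMO5 in kb; red and blue points were called higher and lower, grey ones were not called, and black diamonds are FMO genes. The 20 neighbours of the cluster range from -1.48 to 0.64. FMO2 is at 3.44 and was selected on this difference, so its size is not compared with theirs.

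The genes whose pattern over the 6 libraries was most like that of each member were found by the root mean square difference (RMSD) of log2 CPM centred on each gene's mean. For FMO2 these were PTGDS (RMSD 0.250), which encodes a prostaglandin D2 synthase, ADAMTS5 (0.336), a secreted protease gene, and CYP4B1 (0.342), a cytochrome P450 gene. PTGDS had 8, 8 and 9 counts in OV3/SCR and 66, 93 and 83 in OV3/COX1KD cells, with a log2 fold change of 3.29. ADAMTS5 had 114, 82 and 89 against 808, 750 and 902 counts, a log2 fold change of 3.14. CYP4B1, at higher counts of 884, 815 and 818 against 6112, 5796 and 6574, had 2.91. For FMO4 the nearest were BTBD8 (0.0794), RP11-219G10.1 (0.0828) and ADAP1 (0.0843), with log2 fold changes of 0.78, 0.67 and 0.58. For FMO5 they were RP11-493L12.2 (0.140), the gene ENSG00000261879 (0.185) and AP001877.1 (0.202), with log2 fold changes of -0.15, -0.17 and 0.27. With 6 libraries in 2 conditions, genes with a similar difference between the conditions score as alike, and the members were selected on that difference.

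Cytochrome P450 enzymes of families 1 to 3 share many drug substrates with the FMOs. Of 23 such genes 10 passed the filter, 2 rose, 4 fell and 4 were not called, with a median log2 fold change of -0.055. Over all tested genes 25.8% were called higher and 22.1% lower, the shares to set beside this list and those below. No list was tested as a set. CYP2U1, which hydroxylates fatty acids, rose by 0.48 (SE 0.090, FDR = 1.4e-04), and CYP1B1, which hydroxylates estrogens, rose by 0.33 (SE 0.063, FDR = 1.5e-04). CYP1A1, the classical target of the aryl hydrocarbon receptor, fell by 0.70 on the log2 scale (SE 0.11, FDR = 2.0e-05), from 222, 239 and 237 counts to 115, 163 and 141. CYP2E1 fell by 1.01 (SE 0.26, FDR = 0.00271) and CYP2D6 fell by 0.83 (SE 0.24, FDR = 0.00604). Leaving out OV3/SCR replicate 2 or OV3/COX1KD replicate 1 reduced the 6 P450 calls to 3, and the FDR ranged up to 0.0203 for CYP2E1 and 0.0343 for CYP2D6 over the settings tried.

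Of 30 other flavoprotein and carbonyl-metabolizing enzyme genes, 26 passed the filter, 10 rose, 8 fell and 8 were not called, with a median of 0.058. MAOA, monoamine oxidase A, which also oxidizes amines with FAD, rose by 1.27 (SE 0.064, FDR = 1.7e-12), from 291, 271 and 253 to 639, 627 and 656 counts. EPHX2, the soluble epoxide hydrolase, rose by 0.82 (SE 0.047, FDR = 1.3e-11) and the carbonyl reductase gene DHRS4 by 0.68 (SE 0.098, FDR = 6.7e-06). XDH, the flavoenzyme of purine breakdown, fell by 2.30 (SE 0.19, FDR = 2.3e-09), from 124, 135 and 125 to 31, 15 and 30 counts. AKR1B10, an aldo-keto reductase, fell by 0.84 (SE 0.073, FDR = 7.3e-09) and CYB5R1, a cytochrome b5 reductase, fell by 0.83 (SE 0.059, FDR = 3.9e-10).

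FMOs need FAD, made from riboflavin, and NADPH. Of 24 genes of FAD synthesis and NADPH supply, 22 were tested, 9 rose, 7 fell and 6 were not called, with a median of 0.015. RFK, riboflavin kinase, the first step to FAD, fell by 0.75 (SE 0.058, FDR = 1.3e-09), from 974, 868 and 902 to 496, 505 and 597 counts, and FLAD1, the FAD synthase of the second step, fell by 0.34 (FDR = 4.0e-08). H6PD, which makes NADPH within the endoplasmic reticulum, rose by 1.35 (SE 0.047, FDR = 6.6e-15), IDH2 by 1.27 (SE 0.050, FDR = 4.2e-14) and NNT by 0.64 (SE 0.042, FDR = 9.4e-11), both NADPH sources of mitochondria. ME1, a cytosolic source, fell by 0.40 (SE 0.045, FDR = 2.7e-07). FLAD1 was named after its values were seen.

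Conjugating enzymes act after the oxygenases on many substrates. Of 38 such genes 28 were in the table, and of 14 tested rows 4 rose, 5 fell and 5 were not called, with a median of 0.073. SULT2B1, a cholesterol sulfotransferase, rose by 0.60 (SE 0.15, FDR = 0.00161), UGT8, which makes galactosylceramide, by 0.25 (SE 0.042, FDR = 4.5e-05) and TPMT, thiopurine methyltransferase, by 0.24 (SE 0.047, FDR = 2.1e-04). UGT2B7, which adds glucuronic acid to drugs and steroids, fell by 0.59 (SE 0.12, FDR = 3.5e-04). The pair of rows that share the name SULT1A3 fell by 1.16 (FDR = 0.00310) and 0.87 (FDR = 1.5e-04). These values are uncertain, since how reads were shared between the rows was not tested.

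FMO1 is known to oxidize hypotaurine to taurine. Of 12 genes that handle cysteamine, hypotaurine and taurine, 8 were tested, 2 rose, 2 fell and 4 were not called, with a median of -0.085. The pantothenate kinase genes PANK1 and PANK3 rose by 0.47 (FDR = 4.2e-06) and 0.15 (FDR = 9.6e-04). The taurine transporter gene SLC6A6 fell by 0.96 (SE 0.12, FDR = 8.9e-07), and CSAD, cysteine sulfinate decarboxylase, fell by 0.47 (SE 0.081, FDR = 5.6e-05).

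Of 20 genes of transcription factors and nuclear receptors that act on drug-metabolizing genes in liver and other tissues, 15 were tested, 7 rose, 3 fell and 5 were not called, with a median of 0.19. FOXA1, a forkhead factor, rose by 1.12 (SE 0.13, FDR = 4.8e-07), CEBPA by 0.82 (SE 0.21, FDR = 0.00213) and RXRA, the common partner of many nuclear receptors, by 0.57 (SE 0.043, FDR = 8.0e-10). FOXA2 fell by 1.03 (SE 0.18, FDR = 7.1e-05). The aryl hydrocarbon receptor gene AHR fell by 0.40 (SE 0.060, FDR = 1.2e-05) and the gene of its repressor, AHRR, by 0.79 (SE 0.22, FDR = 0.00405). The genes past the fold limit of 2.5 in any of these lists were H6PD, which was higher, and XDH, which was lower.

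**Figure D4:**
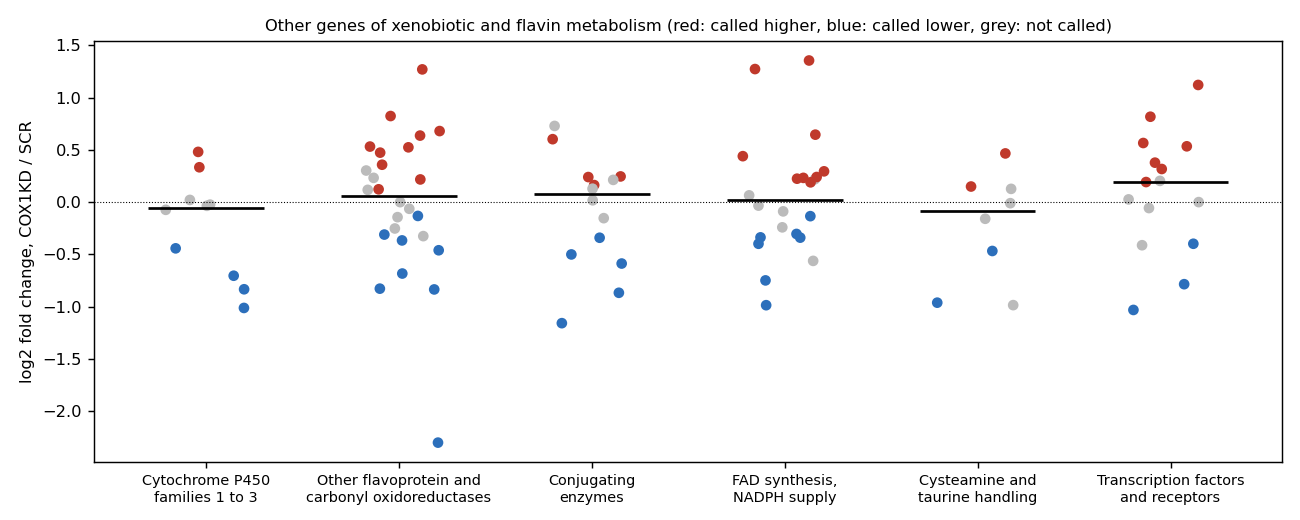
Log2 fold change, OV3/COX1KD over OV3/SCR, of each tested gene in 6 lists of metabolic and regulatory genes; red and blue points were called higher and lower, grey ones were not called, and bars are list medians. The medians lie between -0.085 and 0.19, and the extremes are XDH at -2.30 and H6PD at 1.35.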

How the data were processed

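RNA-seq libraries were prepared from total RNA with Illumina TruSeq reagents from 3 OV3/SCR and 3 OV3/COX1KD cell populations. The authors aligned the reads to hg19 (GRCh37) with TopHat2 2.0, and deposited raw HTSeq read counts per gene without normalization. The gene annotation and the strand setting are not given in the sources used here.

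The deposited counts were scaled by TMM, filtered with filterByExpr and compared by the quasi-likelihood test of edgeR 4.0.16 (R 4.3.3), with 1 factor, the condition, and p-values adjusted by Benjamini-Hochberg over 17309 genes (FDR). A gene was called at an FDR under 0.01, the study's threshold, and a fold change above 2.5 was its second limit. SEs were obtained from each log2 fold change and the square root of its F statistic. RPKM used exon lengths of GENCODE 44 on GRCh37, which listed 33556 of the 34811 genes. A difference against a condition at or under 3 counts was computed against that floor. Replicates are separately harvested populations of 1 clone, so p-values do not cover the spread between clones. The 2 libraries of any pair within a condition differed by more than sampling noise (chi-square per degree of freedom 1.74 to 5.74). The highest values, 4.44 and 5.74, were of pairs with OV3/COX1KD replicate 2, against 1.81 for replicates 1 and 3 of that condition.

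The members and the lists were chosen with earlier results of these data known. The genes named are the members, other FMO rows, up to 3 largest rises and 3 largest falls per list among called genes whose groups did not overlap, the nearest 3 tested genes on each side of each locus with those inside it, the 3 genes most like each member, and PTGS1. Library replicate numbers were not treated as pairs, since the sources used here do not say that they mark pairs. Same-numbered libraries deviated together with correlations of 0.0045 to 0.042 across genes, against -0.027 to 0.018 for differently numbered ones. A replicate block was among the settings tried. The scripts were tested on simulated data. FMO7P, FMO8P, FMO10P and FMO11P were not analysed here, and some genes that meet the naming rule are not reported here.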

Additional observations from a re-analysis of the deposited data

How the results depend on the processing

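Results were recomputed with RLE or total count scaling, with DESeq2 1.42.0, with the filter dropped or raised to 10 counts in every library, with a replicate block, and without each library in turn. FMO2 had a log2 fold change of 3.27 to 3.78 when single libraries were left out, the highest without OV3/SCR replicate 3, and with the replicate block 3.44. It had no value with at least 10 counts in every library, nor had FMO5. FMO4 lay between 0.55 and 0.91 and FMO5 between -0.36 and 0.48. Of the members, 2 were called without the filter and 1 to 2 when libraries were left out, and nothing is read from these counts. Genes called higher with a fold above 2.5 numbered 274, and 172 with at least 10 counts in every library. When libraries were left out, 3 to 5 P450 genes and 5 to 11 neighbours of FMO5 were called. The 11 were called without OV3/COX1KD replicate 2, where 4852 genes were higher and 4137 lower. With the replicate block 4437 genes were higher and 3796 lower, and no named call changed. NBPF12, never called, changed sign to 0.00094 without the filter and ranged from -0.10 to 0.054 when libraries were left out, with 0.016 and 0.032 without OV3/SCR replicates 1 and 2. Over 629 values of 53 other named genes, 596 kept direction and side of the threshold, and 26 values of 9 genes lost their call (CYP2E1, CYP2D6, SULT2B1, SULT1A3, PANK3, CEBPA, AHRR, PDIA3P and CHD1L). The causes were not tested.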
